A study of Canis lupus with 20 samples.

Results

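The genes described here encode the contractile unit of heart muscle and the proteins that anchor it and sense its load: the thick and thin filaments, the Z-disc, the stretch response proteins with LIM domains or ankyrin repeats, and the linkers of actin and desmin. The set holds 35 named genes. Each was represented by the probe set with the highest mean signal among those annotated to that gene alone, and all 35 had such a probe set and passed the filter on dim signals. They stand among 15115 genes with a probe set of their own on the array, of which 11423 were tested. The samples were left atrial and left ventricular tissue of normal dogs, harvested at sacrifice 12 weeks after surgery. The dogs had either lost the right kidney (uninephrectomy) or been sham operated. Each operation was assigned to 6 dogs, and 5 atrial and 5 ventricular samples per operation were placed on Affymetrix canine arrays, 1 array per sample, 20 arrays in all. No gene was altered and no drug was given according to the labels, and breed, age and sex are not given in the sources used here.

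The sarcomere shortens when myosin heads of the thick filament pull on actin of the thin filament, under the control of the troponins and tropomyosin. Neighbouring sarcomeres meet at the Z-disc, where alpha-actinin cross-links the thin filaments and titin is anchored. Z-disc and titin-bound proteins such as the muscle ankyrin repeat proteins and the four-and-a-half LIM domain proteins are known to respond to stretch and pressure load, and skeletal alpha-actin is a classical marker of fetal gene expression in the loaded heart. Atria and ventricles work against different pressures and carry chamber-specific forms of several of these proteins, so the gene set was examined by chamber and by operation.

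All values below are log2 signals of a probe set, and differences are log2 differences ± standard error (SE) between groups of 5 arrays. Array medians lay between 2.33 and 2.39 and array maxima between 14.45 and 15.02, so a signal near log2 2 is at the level of the middle probe set and a signal above 14 is close to the top of the scale. The chamber labels matched the light chain genes. MYL2, the ventricular regulatory light chain, averaged 3.81 in sham atrium and 14.66 in sham ventricle, and MYL4, the atrial essential light chain, averaged 14.33 and 8.45. Of 14 markers of skeletal muscle fibres, 11 or 12 had means under log2 3 in each group. The others were ATP2A1, PVALB and, in the atrium, MYBPC1, which averaged 5.59 in sham and 7.60 in uninephrectomized atrium against 2.36 and 2.51 in ventricle. Of the 13 that were tested, 2 were higher and 1 lower in the sham atrium, and 3 were higher in the uninephrectomized atrium. Among all tested genes 12.0% were higher and 10.8% lower in the sham atrium, and 16.2% were higher in the uninephrectomized atrium. The 3' gap, the mean log2 excess of 3' over middle or 5' control probe sets and a sign of RNA degradation, was 1.19 ± 0.19 (SD, n = 5) in sham atrium, 1.10 ± 0.26 in uninephrectomized atrium, 1.42 ± 0.27 in sham ventricle and 1.14 ± 0.15 in uninephrectomized ventricle. In 5 arrays it exceeded 1.4: number 2 of the sham atrium, number 4 of the uninephrectomized atrium, and numbers 3, 4 and 5 of the sham ventricle.

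The first comparison asked how the chambers differ within each operation. In sham dogs 21 of the 35 members passed the test, 20 lower and 1 higher in the atrium. Among all 11423 genes 22.8% passed, 10.8% lower and 12.0% higher. ANKRD23, MYOT and FHL2 had the most negative differences, and the member that was higher was PDLIM3. FHL2 was 8.14-fold lower in signal in the atrium, while the atrial signals of ANKRD23 and MYOT lay near the array median, so no fold is given for them. In uninephrectomized dogs 23 of 35 passed, 22 lower and 1 higher, against 29.9% of all genes, 13.7% lower and 16.2% higher. The 20 members lower in sham dogs were also lower in uninephrectomized dogs, PDLIM3 was higher in both, and FLNC and NEXN passed in the uninephrectomized dogs. The median chamber difference of the members was -0.36 in sham and -0.44 in uninephrectomized dogs, and that of all genes was -0.01 and -0.02.

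Because most members are bright on the array, bright genes are the closer background. Of the 25 members with a mean signal over log2 10, 15 were lower and 0 higher in the sham atrium, and among all 958 genes with such a mean 24.7% were lower and 19.0% higher. In uninephrectomized dogs 16 of the 25 were lower and 0 higher, beside 27.1% and 24.1% of the bright genes. The atrial and ventricular arrays did not overlap for 16 members lower in the sham atrium (7.48% of all genes) and for 21 lower in the uninephrectomized atrium (10.9%). For higher members the counts were 0 in sham dogs (8.36% of all genes) and 1, PDLIM3, in uninephrectomized dogs (12.6%). With quantile normalization in place of the deposited scale the sham split was 3 higher and 17 lower, because ACTC1 and CSRP3 then passed as higher in the atrium and MYBPC3, TNNC1 and LMOD2 no longer passed as lower. When the 5 arrays with a 3' gap over 1.4 were left out, which leaves 2 ventricular sham arrays, 16 members passed in sham dogs, 15 of them among the 21.

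**Figure D1:**
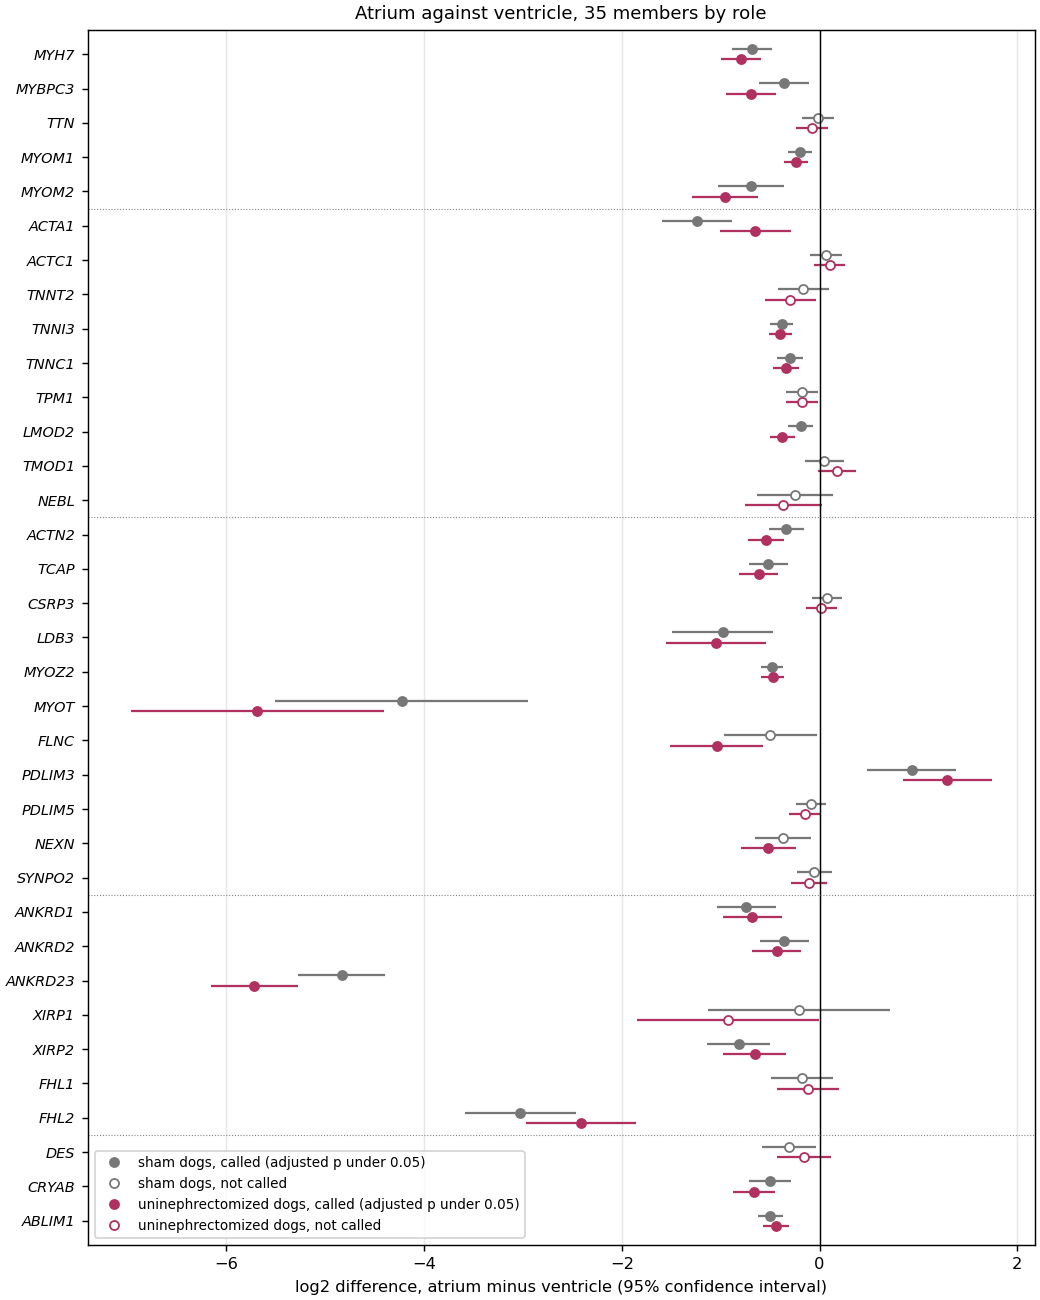
Difference between left atrium and left ventricle (horizontal axis, log2, atrium minus ventricle) for 35 members grouped by role, in sham dogs (grey) and uninephrectomized dogs (red). Points are fitted differences, lines are 95% confidence intervals and filled points passed the test at an adjusted p under 0.05. Most points lie left of 0, ANKRD23, MYOT and FHL2 lie far to the left, and PDLIM3 is the filled pair on the right.

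Among the 7 stretch response genes, 5 were lower in the atrium in sham dogs and the same 5 in uninephrectomized dogs. The shares of all genes lower in the atrium were 10.8% in sham and 13.7% in uninephrectomized dogs. ANKRD23, a titin-bound muscle ankyrin repeat protein, was close to the array median in every atrial array. Its signals in sham atrium were 2.29, 2.26, 2.60, 1.86 and 1.99, and in sham ventricle 7.21, 6.41, 6.76, 6.86 and 7.92. In uninephrectomized dogs the atrial signals were 2.17, 1.77, 1.88, 2.48 and 2.05 and the ventricular ones 7.76, 7.94, 7.71, 7.86 and 7.68. All 10 ventricular arrays lay above all 10 atrial arrays. The difference was -4.83 ± 0.21 in sham dogs (adjusted p = 6.46e-12) and -5.72 ± 0.21 in uninephrectomized dogs (adjusted p = 4.49e-13), each against an atrial signal near the array median. The other probe sets of ANKRD23 were also lower in the atrium, by -4.17 and -2.76 in sham dogs.

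FHL2, a LIM domain protein of the Z-disc and I-band that scaffolds kinases and transcription factors, was bright in the ventricle and less so in the atrium. Signals in sham atrium were 10.30, 9.65, 10.70, 10.56 and 10.76 and in uninephrectomized atrium 10.83, 11.98, 10.03, 11.17 and 10.47. Ventricular signals were 13.44, 13.19, 13.71, 13.26 and 13.50 in sham dogs and 13.38, 13.14, 13.29, 13.47 and 13.29 in uninephrectomized dogs. The chambers did not overlap, and the atrial arrays were the more scattered. FHL2 was lower in the atrium by -3.02 ± 0.27 in sham dogs (adjusted p = 1.69e-07) and by -2.42 ± 0.27 in uninephrectomized dogs (adjusted p = 2.23e-06), and its other probe set by -3.36 and -2.92.

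ANKRD1, the cardiac ankyrin repeat protein induced by stretch, gave atrial signals of 13.38, 13.21, 13.56, 12.83 and 13.57 and ventricular signals of 14.02, 13.84, 14.17, 13.98 and 14.24 in sham dogs. The lowest ventricular array exceeded the highest atrial array. The difference was -0.74 ± 0.14 (adjusted p = 0.000937) in sham dogs and -0.68 ± 0.14 (adjusted p = 0.00143) in uninephrectomized dogs, a 1.67-fold and a 1.60-fold lower atrial signal. Its other probe set gave -1.21 and -1.24. Without the arrays of high 3' gap the sham difference of ANKRD1 was -0.60 ± 0.19 (adjusted p = 0.0598).

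XIRP2, a Xin repeat protein of the intercalated disc, was dim in all groups, with means of 2.18 and 3.00 in sham atrium and ventricle and a difference of -0.82 ± 0.15 (adjusted p = 0.000701). In uninephrectomized dogs XIRP2 differed by -0.66 ± 0.15 (adjusted p = 0.00315). ANKRD2, another muscle ankyrin repeat protein, stayed under log2 3 in every array, and its difference of -0.36 ± 0.12 (adjusted p = 0.0389) in sham dogs did not pass with the replicate number as a block (adjusted p = 0.0630) or without any 1 of 5 single sham arrays (adjusted p from 0.0774 to 0.108). XIRP1 and FHL1 did not pass. FHL1, the LIM protein of the titin N2B region, differed by -0.18 ± 0.15 in sham and -0.12 ± 0.15 in uninephrectomized dogs, and XIRP1 by -0.21 ± 0.44 and -0.92 ± 0.44.

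**Figure D2:**
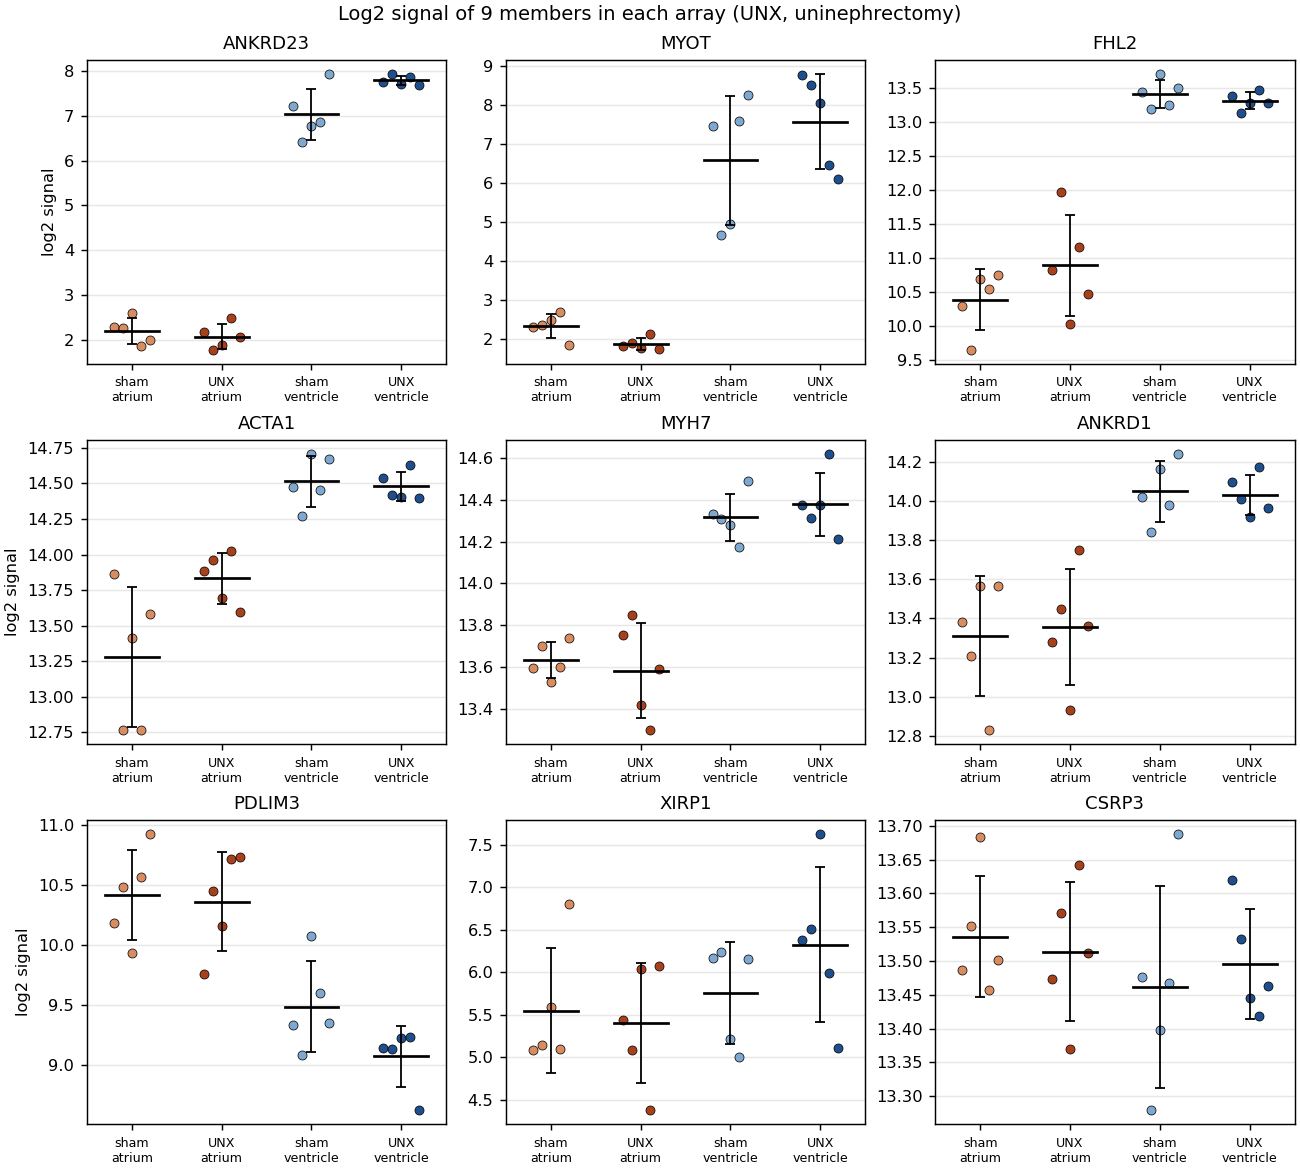
Log2 signal (vertical axis, scaled per gene) of 9 members in each of 20 arrays by operation and chamber. Points are arrays, thick lines group means and bars ± 1 SD of 5 arrays. ANKRD23, MYOT, FHL2, ACTA1, MYH7 and ANKRD1 separate the chambers with no overlap, PDLIM3 is higher in the atrium, and XIRP1 and CSRP3 overlap in all groups.

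Of the 11 Z-disc genes, 5 were lower and 1 higher in the sham atrium, and 7 lower and 1 higher in the uninephrectomized atrium. For all genes the shares were 10.8% lower and 12.0% higher in sham dogs, and 13.7% and 16.2% in uninephrectomized dogs. MYOT, myotilin, which binds alpha-actinin and filamin C, gave signals of 2.31, 2.38, 2.49, 2.71 and 1.87 in sham atrium and 7.45, 4.67, 4.95, 7.57 and 8.25 in sham ventricle. The corresponding arrays of uninephrectomized dogs read 1.84, 1.92, 1.77, 2.15 and 1.76 in the atrium and 8.75, 8.52, 8.04, 6.45 and 6.10 in the ventricle. Atrial arrays were at the array median, and the ventricular arrays spread over more than 3 log2 units. The difference was -4.23 ± 0.61 in sham dogs (adjusted p = 6.25e-05) and -5.69 ± 0.61 in uninephrectomized dogs (adjusted p = 1.65e-06). MYOT had the largest spread between arrays of a group among the members, with a within-group SD of 1.04, wider than that of 99.3% of tested genes.

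PDLIM3, the actinin-associated LIM protein, went the other way. Its atrial signals were 10.18, 10.49, 9.94, 10.57 and 10.93 in sham dogs and 9.76, 10.45, 10.16, 10.72 and 10.73 in uninephrectomized dogs. Ventricular signals were 9.34, 9.08, 10.08, 9.60 and 9.35 in sham dogs and 9.15, 9.14, 9.23, 9.24 and 8.63 in uninephrectomized dogs. In sham dogs 1 ventricular array reached into the atrial range, and in uninephrectomized dogs the chambers did not overlap. The difference was 0.93 ± 0.21 (adjusted p = 0.00417) and 1.29 ± 0.21 (adjusted p = 0.000189), a 1.91-fold and a 2.44-fold higher atrial signal. All 4 probe sets of PDLIM3 passed as higher in the atrium, with differences up to 2.04 in sham and 2.30 in uninephrectomized dogs. Of the 8 smooth muscle markers 3 were higher and 1 lower in the sham atrium, and 4 higher and 2 lower in the uninephrectomized atrium. TAGLN, MYH11 and ACTA2 were higher in both, with sham differences of 2.42, 1.23 and 0.90, while SMTN was lower in both, by -1.01 in sham dogs. The part of these markers in the PDLIM3 result was not tested.

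LDB3, also called ZASP or Cypher, averaged 6.13 in sham atrium and 7.11 in sham ventricle. The difference was -0.98 ± 0.24 (adjusted p = 0.00671) in sham dogs, with overlap between the chambers, and -1.05 ± 0.24 (adjusted p = 0.00315) in uninephrectomized dogs, with none. TCAP, telethonin, which caps titin at the Z-disc, was lower by -0.52 ± 0.09 (adjusted p = 0.000611) in the sham atrium and by -0.61 ± 0.09 in the uninephrectomized atrium. MYOZ2, calsarcin 1, a calcineurin-binding Z-disc protein, differed by -0.48 ± 0.05 in sham and by -0.48 ± 0.05 in uninephrectomized dogs and had the tightest arrays of all members, with a within-group SD of 0.07. ACTN2, the alpha-actinin of striated muscle, differed by -0.33 ± 0.09 and -0.54 ± 0.09.

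FLNC, the sarcomeric filamin, was lower by -1.04 ± 0.22 in the uninephrectomized atrium (adjusted p = 0.00176) and differed by -0.50 ± 0.22 in sham dogs (adjusted p = 0.128). Without array 5 of the sham atrium FLNC passed in sham dogs as well, at -0.69 ± 0.20 (adjusted p = 0.0244). NEXN, the actin-binding nexilin, was lower by -0.52 ± 0.13 (adjusted p = 0.00677) in uninephrectomized dogs and differed by -0.37 ± 0.13 in sham dogs (adjusted p = 0.0563). With the replicate number as a block NEXN passed in sham dogs too (adjusted p = 0.0472), as it did without array 5 of the sham atrium (adjusted p = 0.0359) or of the sham ventricle (adjusted p = 0.0452). Of the 6 tested NEXN probe sets 2 passed as lower in sham and 5 in uninephrectomized dogs. With the mean of its probe sets NEXN passed in sham dogs at -0.57 ± 0.15 (adjusted p = 0.0120). The test of whether the chamber difference itself changed with the operation passed for neither gene (adjusted p = 0.9999 for both), so FLNC and NEXN are not shown to differ between operations. CSRP3, the muscle LIM protein, gave 0.07 ± 0.07 in sham and 0.02 ± 0.07 in uninephrectomized dogs, with 95% confidence intervals from -0.08 to 0.23 and from -0.14 to 0.17. PDLIM5, a further LIM protein of the Z-disc, gave -0.09 ± 0.07 and -0.15 ± 0.07, and SYNPO2, an actin-bundling synaptopodin, was under log2 3 in all arrays, so its brightest probe set carries little information.

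Among the 9 thin filament genes 4 were lower in the atrium under each operation, ACTA1, TNNI3, TNNC1 and LMOD2, and 0 were higher. Beside them 10.8% of all genes were lower and 12.0% higher in sham dogs, and 13.7% and 16.2% in uninephrectomized dogs. ACTA1 encodes skeletal alpha-actin. In sham dogs its atrial signals were 13.86, 12.77, 13.41, 12.77 and 13.58 and its ventricular ones 14.48, 14.27, 14.71, 14.45 and 14.67. In uninephrectomized dogs they were 13.88, 13.96, 13.70, 14.02 and 13.60 in the atrium and 14.54, 14.42, 14.41, 14.63 and 14.40 in the ventricle. No atrial array reached the lowest ventricular array, and 2 sham atrial arrays stood at 12.77. The difference was -1.24 ± 0.17 in sham dogs (adjusted p = 3.62e-05) and -0.65 ± 0.17 in uninephrectomized dogs (adjusted p = 0.00775), a 2.36-fold and a 1.57-fold lower atrial signal. On quantile-normalized values the second was -0.47 ± 0.18 (adjusted p = 0.0547). The other probe sets of ACTA1 gave -1.99 and -1.67 in sham dogs, but both are of the type whose probes can match other sequences, and near-identical actins cannot be told apart there.

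ACTC1, the cardiac alpha-actin that shares the thin filament with ACTA1, gave 0.07 ± 0.08 in sham and 0.10 ± 0.08 in uninephrectomized dogs on its brightest probe set. Its other probe set passed as higher in the atrium, by 0.38 ± 0.11 (adjusted p = 0.0221) in sham dogs and by 0.39 in uninephrectomized dogs, and on quantile-normalized values the brightest passed too, at 0.28 ± 0.04 and 0.34 ± 0.04. The regulatory subunits differed by little. TNNI3, cardiac troponin I, was lower in the atrium by -0.38 ± 0.06 in sham (adjusted p = 5.81e-05) and -0.40 ± 0.06 in uninephrectomized dogs. TNNC1, the calcium-binding troponin C, was lower by -0.30 ± 0.06 (adjusted p = 0.00180) and -0.34 ± 0.06, and after quantile normalization differed by -0.07 ± 0.05 (adjusted p = 0.279) and -0.12 ± 0.05 (adjusted p = 0.0683). TNNT2 and TPM1, troponin T and tropomyosin, did not pass on their brightest probe sets, at -0.16 ± 0.12 and -0.18 ± 0.08 in sham dogs. Of the 3 tested TNNT2 probe sets 0 passed in sham dogs and 1 passed as lower in the uninephrectomized atrium. With the 3' gap as a covariate TPM1 passed, at -0.24 ± 0.07 (adjusted p = 0.0229) in sham and -0.19 ± 0.07 (adjusted p = 0.0439) in uninephrectomized dogs. Without the covariate 0 of the 4 tested TPM1 probe sets passed in sham dogs. In uninephrectomized dogs 1 of them passed as higher in the atrium and 0 as lower. Without the arrays of high 3' gap TNNC1 differed by -0.21 ± 0.08 (adjusted p = 0.128) in sham dogs and TNNT2 passed at -0.45 ± 0.12 (adjusted p = 0.0304).

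LMOD2, leiomodin 2, which nucleates and elongates thin filaments, was lower in the atrium by -0.19 ± 0.06 (adjusted p = 0.0317) in sham and by -0.38 ± 0.06 (adjusted p = 0.000152) in uninephrectomized dogs. With the replicate number as a block the sham difference of LMOD2 did not pass (adjusted p = 0.0630), and it did not pass when the arrays of high 3' gap were left out (adjusted p = 0.397) or without any 1 of 5 single sham arrays (adjusted p from 0.0516 to 0.0876). With the mean of its probe sets LMOD2 did not pass in either operation, at -0.083 ± 0.24 (adjusted p = 0.847) in sham and -0.56 ± 0.24 (adjusted p = 0.0832) in uninephrectomized dogs. TMOD1, tropomodulin, which caps the pointed end of the thin filament, gave 0.05 ± 0.09 and 0.18 ± 0.09. NEBL, the cardiac nebulette, gave -0.25 ± 0.19 and -0.37 ± 0.19. On its brightest probe set neither TMOD1 nor NEBL passed in either operation. Of the 5 tested NEBL probe sets 1 passed as lower in sham and 2 in uninephrectomized dogs, and 0 of 3 passed for TMOD1.

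Of the 5 thick filament and M-band genes 4 were lower in the atrium under each operation. The share of all genes was 10.8% in sham and 13.7% in uninephrectomized dogs. MYH7, the slow beta-myosin heavy chain, is the main ventricular myosin of large mammals. Its signals were 13.59, 13.70, 13.53, 13.60 and 13.74 in sham atrium and 14.33, 14.31, 14.28, 14.17 and 14.49 in sham ventricle. In uninephrectomized dogs they were 13.75, 13.85, 13.42, 13.30 and 13.59 in the atrium and 14.37, 14.31, 14.38, 14.62 and 14.21 in the ventricle. The chambers did not overlap. MYH7 differed by -0.68 ± 0.10 (adjusted p = 5.48e-05) in sham and by -0.80 ± 0.10 (adjusted p = 7.54e-06) in uninephrectomized dogs, a 1.61-fold and a 1.74-fold lower atrial signal.

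The size of the MYH7 difference depended on the probe set, as was seen after the values had been examined. On the MYH7 probe set with a mean of 7.71 over the 20 arrays the atrial signals of sham dogs were 6.90, 4.99, 6.29, 6.19 and 5.10 and the ventricular ones 10.02, 9.26, 9.20, 10.11 and 9.56. The difference there was -3.74 ± 0.39 in sham and -3.43 in uninephrectomized dogs. On the one with a mean of 6.35 it was -4.34 ± 0.34 and -4.32. A further MYH7 probe set, with a mean of 12.08, gave -0.44 ± 0.47 and -0.90 and did not pass, and the dimmest, with a mean of 2.44, was higher in the atrium by 0.25 and 0.22. MYH7 was the 1 member with probe sets called in both directions. Alpha-myosin, encoded by MYH6, is a close paralogue, and signals shared with it cannot be told apart on these probe sets.

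MYOM2, the fast M-band myomesin, was lower in the atrium by -0.69 ± 0.16 (adjusted p = 0.00422) in sham and -0.95 ± 0.16 (adjusted p = 0.000198) in uninephrectomized dogs. Of its 9 tested probe sets 2 passed as lower in sham and 8 in uninephrectomized dogs. Without the arrays of high 3' gap the sham difference of MYOM2 was -0.65 ± 0.20 (adjusted p = 0.0540). MYOM1, the general myomesin, was lower by -0.20 ± 0.06 and -0.24 ± 0.06. The sham call for MYOM1 did not hold without the arrays of high 3' gap (adjusted p = 0.115), with the sham arrays fitted alone (adjusted p = 0.0628), with the mean of its probe sets (adjusted p = 0.104) or without array 5 of the sham ventricle (adjusted p = 0.0552). MYBPC3, cardiac myosin-binding protein C, was lower by -0.36 ± 0.12 (adjusted p = 0.0379) in sham dogs and by -0.69 ± 0.12 (adjusted p = 0.000291) in uninephrectomized dogs. With the replicate number as a block the sham difference of MYBPC3 did not pass (adjusted p = 0.0780), nor did it on quantile-normalized values (adjusted p = 0.0898) or without any 1 of 6 single sham arrays (adjusted p from 0.0531 to 0.105). With the mean of its probe sets MYBPC3 did not pass in either operation, at -0.18 ± 0.22 (adjusted p = 0.610) in sham and -0.37 ± 0.22 (adjusted p = 0.221) in uninephrectomized dogs.

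TTN, titin, the elastic filament that spans from Z-disc to M-band, did not pass on its brightest probe set, at -0.02 ± 0.08 (95% confidence interval -0.18 to 0.15) in sham and -0.08 ± 0.08 (-0.24 to 0.09) in uninephrectomized dogs. TTN has 20 tested probe sets, and 4 of them passed as higher in the atrium in each operation while 0 passed as lower. Those 4 were picked out after their values were seen. On the one with a mean of 6.66 over the 20 arrays the sham atrial signals were 7.51, 7.95, 7.55, 7.13 and 8.24 and the sham ventricular ones 4.88, 4.68, 6.30, 4.55 and 4.81. The uninephrectomized atrium read 8.40, 8.44, 7.81, 7.28 and 7.02 and the ventricle 6.67, 4.00, 7.92, 6.11 and 5.86. Sham chambers were separate, and in uninephrectomized dogs the ventricular array at 7.92 lay inside the atrial range.

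That TTN probe set was higher in the atrium by 2.63 ± 0.52 (adjusted p = 0.00122) in sham and by 1.68 (adjusted p = 0.0215) in uninephrectomized dogs. The TTN probe set with a mean of 7.22, named on the array for the same target sequence, gave 1.98 and 1.48. The one with a mean of 5.69 gave 2.21 ± 0.43 and 1.89, and the brightest of the 4, with a mean of 11.22, gave 0.54 and 0.50. The other 16 probe sets of TTN did not pass in sham dogs and ranged there from -0.24 to 0.20. Where in the titin transcript each probe set lies was not analysed here, so exons cannot be assigned to these signals. Averaged over its probe sets TTN was higher in the sham atrium by 0.39 ± 0.10 (adjusted p = 0.00782).

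**Figure D3:**
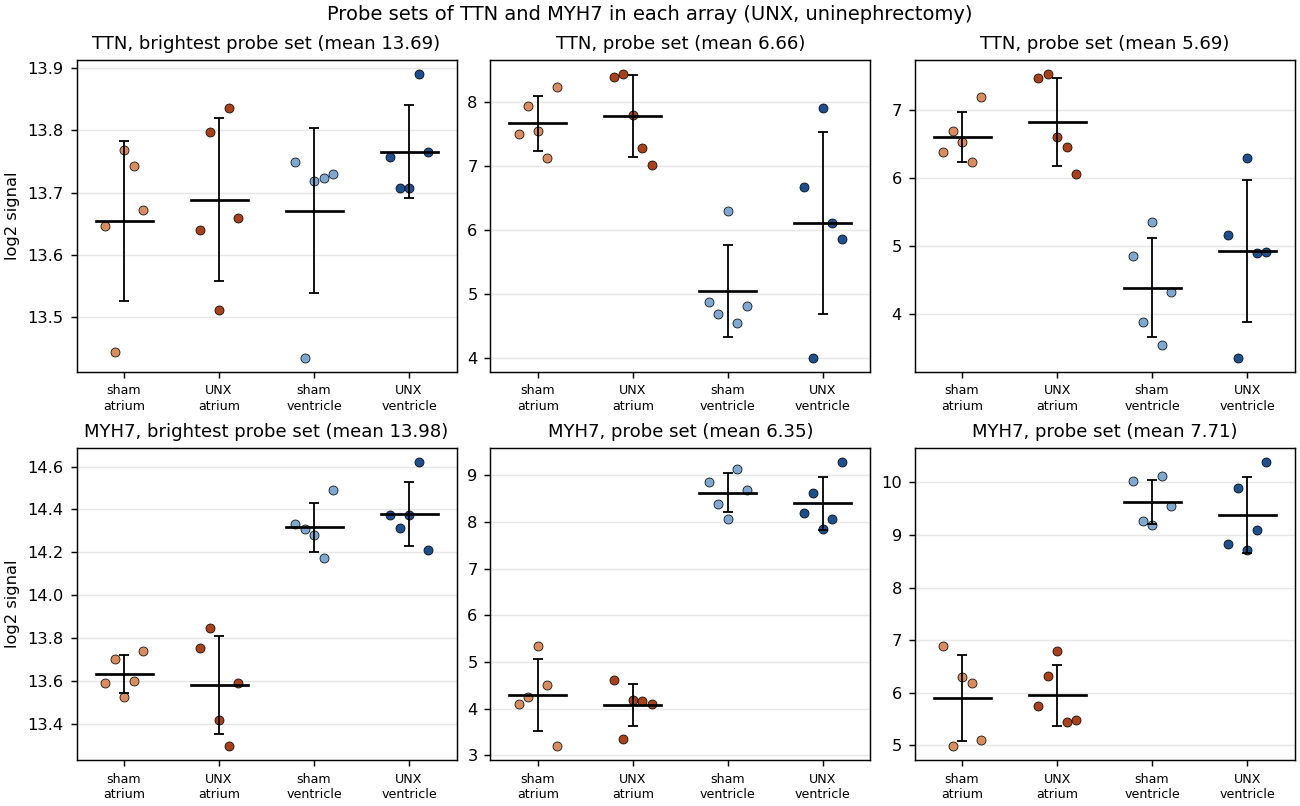
Log2 signal (vertical axis, scaled per panel) of 3 probe sets of TTN and 3 of MYH7 in each of 20 arrays by operation and chamber, with group mean and ± 1 SD. The brightest TTN probe set overlaps in all groups while the other TTN panels are higher in the atrium, and the MYH7 panels are lower in the atrium, with sham differences from -4.34 to -0.68.

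Of the remaining linkers of actin and desmin, CRYAB and ABLIM1 were lower in the atrium and DES did not pass. CRYAB, the small heat shock protein alpha-B crystallin that protects desmin and titin, differed by -0.50 ± 0.10 (adjusted p = 0.00136) in sham and by -0.66 ± 0.10 (adjusted p = 8.30e-05) in uninephrectomized dogs. ABLIM1, an actin-binding LIM protein, differed by -0.50 ± 0.06 (adjusted p = 1.06e-05) and -0.44 ± 0.06 (adjusted p = 2.96e-05). DES, desmin, the intermediate filament around the Z-disc, gave -0.31 ± 0.13 (adjusted p = 0.104) and -0.16 ± 0.13 (adjusted p = 0.411).

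Probe sets of one member often differed in size and sometimes in direction. Of 88 further tested probe sets of the 29 members with more than 1, 17 were lower and 11 higher in the sham atrium, and 31 were lower and 11 higher in the uninephrectomized atrium. Among all 30047 tested probe sets 9.62% were lower and 11.2% higher in sham dogs. For the uninephrectomized dogs these shares were 12.5% and 14.7%. The higher ones in sham dogs came from TTN, PDLIM3, ACTC1, CSRP3, SYNPO2 and MYH7. The second CSRP3 probe set differed by 0.30 ± 0.10 (adjusted p = 0.0423) in sham dogs, and the second SYNPO2 probe set by 0.48 ± 0.10 at means under log2 3.

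**Figure D4:**
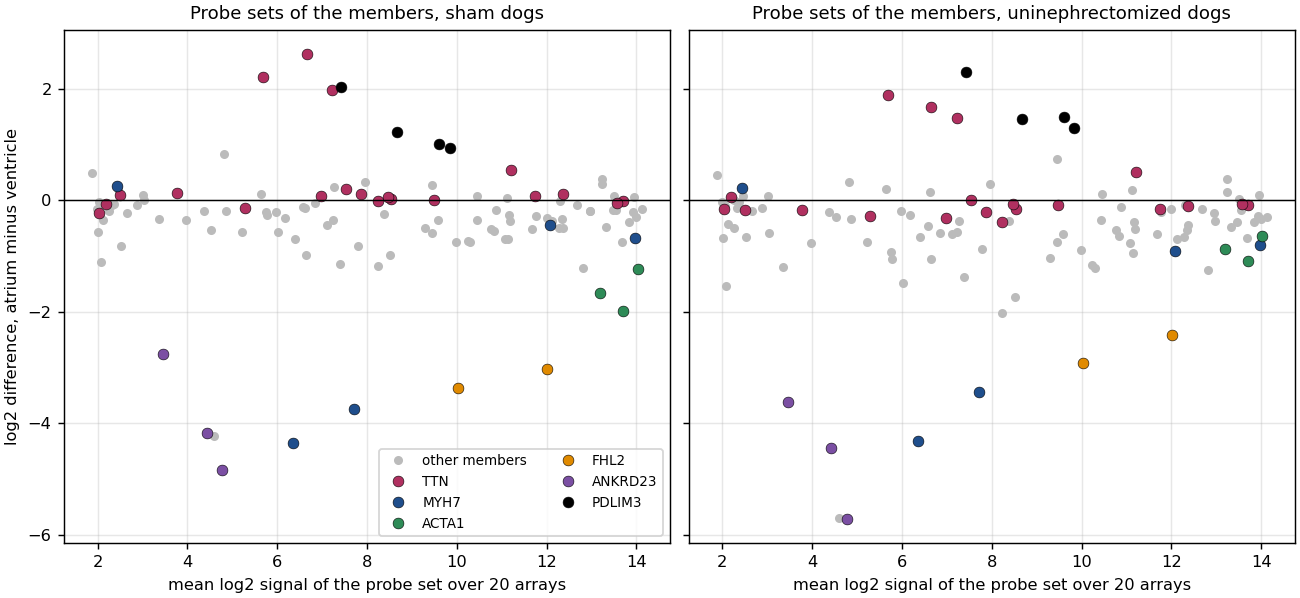
Each of the tested probe sets of the members by its mean log2 signal over 20 arrays (horizontal axis) and its chamber difference (vertical axis, log2, atrium minus ventricle), in sham dogs (left) and uninephrectomized dogs (right). Colours mark 6 genes. PDLIM3 lies above 0 throughout, ANKRD23, FHL2 and ACTA1 below 0, and TTN and MYH7 spread widely, up to 2.63 and down to -4.34.

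Other sarcomere and Z-disc genes were taken from a list of 71, of which 64 had a probe set and 62 were tested. In sham dogs 14 were lower and 11 higher in the atrium, and in uninephrectomized dogs 16 were lower and 14 higher, with a median difference of -0.10 in sham dogs. Among all genes 10.8% were lower and 12.0% higher in sham dogs, and 13.7% and 16.2% in uninephrectomized dogs. Light chain genes were among the listed genes with the largest changes. MYL2 was lower in the sham atrium by -10.85 ± 0.57 and MYL3, the ventricular essential light chain, by -7.91 ± 0.72. MYL4 was higher by 5.88 ± 1.07, MYL7, the atrial regulatory light chain, by 2.02 ± 0.13, and MYL9, a light chain of smooth muscle and non-muscle cells, by 2.03 ± 0.18. Also lower were LMCD1 (-2.11 ± 0.23), a LIM protein, HSPB7 (-1.23 ± 0.09), a cardiac small heat shock protein, and CAVIN4 (-1.14 ± 0.29), a muscle caveolar protein. Higher were TPM2 (1.26 ± 0.40), beta-tropomyosin, and PDLIM4 (1.14 ± 0.34).

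Some markers of other cells differed between the chambers. Among all genes 12.0% were higher and 10.8% lower in the sham atrium, and 16.2% and 13.7% in the uninephrectomized atrium. In bulk tissue a change in the share of muscle cells and a change in RNA per muscle cell cannot be told apart. The mean level of the 8 fibroblast markers was 10.01 (arrays from 9.44 to 10.61) in sham atrium and 8.90 (8.68 to 9.21) in sham ventricle, and 10.42 and 9.01 in uninephrectomized dogs. Of these 8, 6 were higher in the sham atrium and 7 in the uninephrectomized atrium. In the sham atrium 3 of 6 adipocyte markers were higher, ADIPOQ, FABP4 and CIDEC, and in the uninephrectomized atrium 1, ADIPOQ. ADIPOQ stood at 6.04 in sham atrium against 2.21 in sham ventricle, LPL stood at 11.18 against 11.78 and did not pass, and PLIN1, LEP and CIDEC were under log2 3 in all groups. The smooth muscle markers, whose counts stand beside PDLIM3, include the members DES and SYNPO2. Endothelial markers were higher for 0 and lower for 2 of 8 under each operation, and 0 of 7 macrophage markers passed in sham dogs. In the uninephrectomized atrium 1 macrophage marker was higher, CD14, at means under log2 3. The part of these cells in the members' chamber differences was not tested.

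The chamber difference in 3' gap was -0.23 in sham dogs (exact permutation p = 0.159, two-sided, 252 splits). In uninephrectomized dogs it was -0.04 (exact permutation p = 0.738). With the gap as a covariate all 21 sham and all 23 uninephrectomized calls remained, and TPM1 was added in both. Over 21 alternative settings, the arrays left out in turn among them, 14 of the 21 sham calls and 18 of the 23 uninephrectomized calls passed wherever they were tested. The 14 were MYH7, ACTA1, TNNI3, ACTN2, TCAP, LDB3, MYOZ2, MYOT, PDLIM3, ANKRD23, XIRP2, FHL2, CRYAB and ABLIM1.

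The second comparison asked what loss of a kidney did to these genes in each chamber 12 weeks later. With limma 0 of 35 members passed in the atrium and 0 of 35 in the ventricle, beside 0% of all 11423 genes in either. At an unadjusted p under 0.05 there were 2 of 35 in the atrium, against 6.62% of all genes, and 2 of 35 in the ventricle, against 6.22%. Groups did not overlap for 0 members in either chamber, beside 0.928% and 0.910% of all genes. The median difference of the members was -0.03 in the atrium and 0.02 in the ventricle. For 24 members in the atrium and 26 in the ventricle the 95% confidence interval lay within 0.5 log2 units of 0. It reached 1 log2 unit for MYOT, XIRP1 and FHL2 in the atrium and for MYOT, ANKRD23 and XIRP1 in the ventricle. The fit uses a single spread per probe set, pooled over all groups. The width of the atrial MYOT interval therefore comes mostly from the ventricular arrays, with SDs of 1.65 in sham and 1.22 in uninephrectomized dogs. The atrial MYOT arrays were tight, with SDs of 0.31 in sham and 0.16 in uninephrectomized dogs, at signals near the array median.

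In the atrium the smallest p-values among positive differences belonged to ACTA1 and FHL2. ACTA1 differed by 0.55 ± 0.17 (unadjusted p = 0.00425, adjusted p = 0.637). The atrial groups overlapped. The sham arrays at 13.86 and 13.58 lay within or near the uninephrectomized range of 13.60 to 14.02, and the sham arrays at 12.77 lay below it. The other ACTA1 probe sets gave 0.77 ± 0.20 and 0.93 ± 0.25, each with adjusted p = 0.637. FHL2 differed by 0.50 ± 0.27 (adjusted p = 0.771), with the uninephrectomized arrays between 10.03 and 11.98 and the sham arrays between 9.65 and 10.76, so the ranges overlapped in part. TMOD1 at 0.15 ± 0.09, ABLIM1 at 0.07 ± 0.06 and TCAP at 0.06 ± 0.09 followed, with adjusted p from 0.786 to 0.928.

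On the negative side PDLIM5 differed by -0.17 ± 0.07 (unadjusted p = 0.0320, adjusted p = 0.722). Its sham atrial signals were 12.57, 12.71, 12.86, 12.78 and 12.62 and those of uninephrectomized dogs 12.61, 12.47, 12.48, 12.67 and 12.45. The groups overlapped between 12.57 and 12.67. On the other tested PDLIM5 probe sets the atrial groups overlapped as well. On the dimmest, sham arrays ran from 7.53 to 8.70 and uninephrectomized arrays from 7.76 to 8.60. MYOM2 at -0.29 ± 0.16, NEXN at -0.22 ± 0.13, CRYAB at -0.14 ± 0.10 and NEBL at -0.22 ± 0.19 came next, with adjusted p from 0.775 to 0.841. The load-responsive genes MYH7 (-0.05 ± 0.10), ANKRD1 (0.04 ± 0.14), CSRP3 (-0.02 ± 0.07), FHL1 (0.04 ± 0.15), XIRP2 (-0.05 ± 0.15) and FLNC (-0.15 ± 0.22) had intervals that included 0.

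In the ventricle ANKRD23 had the smallest p among the members. It differed by 0.76 ± 0.21 (95% confidence interval 0.32 to 1.20, unadjusted p = 0.00196, adjusted p = 0.558). The uninephrectomized ventricular arrays were tightly grouped between 7.68 and 7.94 (SD 0.10), and the sham arrays ran from 6.41 to 7.92 (SD 0.57). The highest sham array thus lay among the uninephrectomized arrays. MYBPC3 differed by 0.34 ± 0.12 (unadjusted p = 0.0101, adjusted p = 0.641), with sham ventricular signals of 12.30, 12.39, 11.84, 12.09 and 12.44 and uninephrectomized ones of 12.45, 12.51, 12.69, 12.70 and 12.42. The sham arrays at 11.84 and 12.09 were the low ones. Both had a 3' gap over 1.4, as had the sham array at 12.44, the highest of the 5. On the next brightest MYBPC3 probe set the sham ventricular arrays ran from 5.99 to 7.56. The uninephrectomized ones, from 6.95 to 7.28, lay within that range.

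LMOD2 at 0.12 ± 0.06, ACTN2 at 0.16 ± 0.09 and FLNC at 0.39 ± 0.22 had the next smallest p-values on the positive side, with adjusted p from 0.748 to 0.758. PDLIM3 at -0.41 ± 0.21, PDLIM5 at -0.10 ± 0.07, XIRP2 at -0.21 ± 0.15, ACTC1 at -0.10 ± 0.08 and DES at -0.13 ± 0.13 were on the negative side, with adjusted p from 0.758 to 0.873. MYH7 (0.06 ± 0.10), ACTA1 (-0.04 ± 0.17), ANKRD1 (-0.02 ± 0.14), CSRP3 (0.03 ± 0.07) and FHL1 (-0.03 ± 0.15) had intervals that included 0. The 3' gap differed between the ventricular groups by -0.28 (exact permutation p = 0.0635, two-sided, adjusted p = 0.254 over 16 comparisons), and its part in these values was not tested beyond the fits with the gap as a covariate and without the high arrays, in which 0 members passed.

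**Figure D5:**
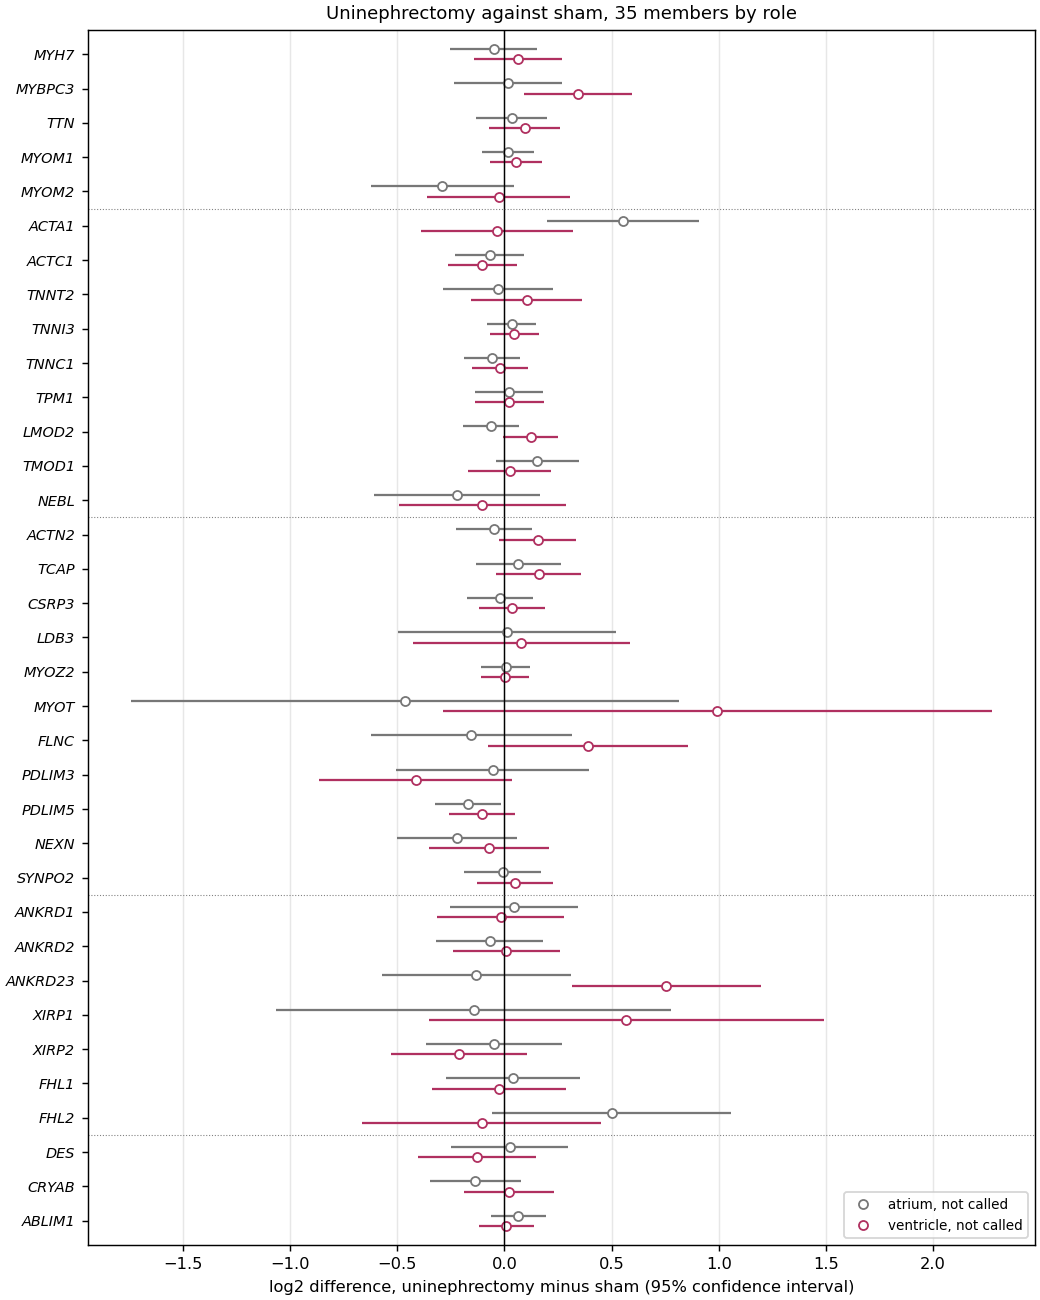
Difference between uninephrectomized and sham dogs (horizontal axis, log2, uninephrectomy minus sham) for 35 members grouped by role, in the atrium (grey) and the ventricle (red). Points are fitted differences and lines 95% confidence intervals, and open points did not pass the test. Most intervals include 0. Those of ACTA1 and PDLIM5 in the atrium and of ANKRD23 and MYBPC3 in the ventricle exclude it before adjustment.

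The third comparison asked whether the response to uninephrectomy differed between the chambers. With limma 0 of 35 members passed, beside 0% of all genes, and 3 of 35 had an unadjusted p under 0.05 against 2.80% of all genes. The atrial minus the ventricular response was -0.89 ± 0.30 for ANKRD23, 0.59 ± 0.24 for ACTA1 and -0.19 ± 0.09 for LMOD2. MYBPC3 at -0.33 ± 0.17 and FLNC at -0.54 ± 0.32 came next. MYH7 (-0.11 ± 0.14), ANKRD1 (0.06 ± 0.20), CSRP3 (-0.06 ± 0.10), FHL1 (0.06 ± 0.21) and XIRP2 (0.16 ± 0.21) had intervals that included 0, and adjusted p was 0.9999 for all of these members. The chamber and operation comparisons use the same 20 arrays, so these responses and the chamber differences share their samples.

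The members differed in how much the 5 arrays of a group scattered. Their median within-group SD was 0.19, against 0.17 for all tested genes, and for the 25 members with a mean over log2 10 it was 0.15 against 0.12 for the 958 bright genes. MYOZ2 and TNNI3 (both 0.07) and MYOM1 (0.08) were the tightest. After MYOT the widest were XIRP1 (0.75), FHL2 (0.45) and LDB3 (0.41), stretch and Z-disc genes. The fit pools this spread over all groups, so MYOT and these genes carry the widest intervals for the operation differences in both chambers. This holds even where the arrays of a chamber were tight, as for MYOT in the atrium.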

How the data were processed

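Expression was measured in 20 heart samples on Affymetrix canine arrays, from 100 ng of Trizol-extracted total RNA with IVT Express biotin labelling, per the labels' protocols. The deposited values are log2 signals per probe set. The background correction, summarization and normalization used by the authors are not named in the labels or the file, and the values were used as deposited. Of 43035 probe sets 111 controls and the dimmest 30% by overall mean (under log2 1.87) were left out, which left 30047. Gene symbols came from GEO's platform annotation, which gives 29254 probe sets 1 symbol and 439 several. A further 13332 probe sets are not listed in the annotation used. Probe sets with several symbols were not used for members.

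Two-sided tests came from lmFit and eBayes of limma 3.58.1 (R 4.3.3), fitted over all 20 arrays with 4 group means and 16 residual degrees of freedom. P-values were adjusted by Benjamini-Hochberg over all tested probe sets, and called at an adjusted p under 0.05. The labels name the samples as separate but do not tie them to dogs, so p-values measure the spread between these arrays. The number of arrays limits the precision. The method was tested on simulated data. The 3' gap was compared by exact permutation (252 splits, smallest p 0.0079).

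The members, the list of other sarcomere genes and the marker lists were chosen with earlier results of these data known. Full statistics are given for the 12 called members with the largest change per direction in each chamber comparison, the 5 with the smallest p per direction in each uninephrectomy comparison, the 5 with the smallest p for the difference of the responses, and always for MYH7, ACTA1, ANKRD1, CSRP3, FHL1, XIRP2 and FLNC. Of the other sarcomere genes the 5 with the largest sham change per direction are named.

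Equal array numbers were checked for pairing by the correlation of deviations from the group means. In sham dogs the 5 atrial and ventricular pairs gave 0.21 to 0.46, each over 0.1, and 5 of 5 atrial arrays matched their own number best. Equal numbers of sham and uninephrectomized arrays, which cannot share a dog, were checked too. They gave -0.18 to 0.35 in the atrium, with 2 of 5 matching best, and -0.11 to 0.14 in the ventricle, with 0 of 5. The highest of these lay within the range of the sham pairs. The sham correlations are thus at most a hint of pairing, from the data and not from the labels. The fits reported have no block, and values with the number as a block are printed beside the calls they change. Alternatives covered the dim filter, scaling, array weights, the prior, the arrays fitted, the 3' gap as a covariate, the replicate block, averaging of probe sets and leaving out each array. Leaving out arrays with a 3' gap over 1.4 was added after the data were seen. Sequences and promoters were not analysed here.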

Additional observations from a re-analysis of the deposited data

Results flagged for a closer look

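In each group of 5 arrays the highest or lowest value was set against the others, and 8 of 144 such groups had a gap to the nearest array that exceeded Dixon's 95% critical value of 0.710 of the group's range. Chance alone gives about 5% of groups. MYOZ2 accounted for 3 of them, with 13.19 in array 5 of the uninephrectomized atrium (the others from 13.02 to 13.07), 13.41 in array 2 of the sham ventricle (the others from 13.56 to 13.61) and 13.67 in array 4 of the uninephrectomized ventricle (the others from 13.52 to 13.55). TTN read 13.44 in array 2 of the sham ventricle, below the others at 13.72 to 13.75. In array 5 of the uninephrectomized ventricle ACTN2 read 12.51 (the others from 12.66 to 12.71) and PDLIM3 read 8.63 (the others from 9.14 to 9.24). FLNC read 9.75 in array 5 of the sham atrium, above the others at 8.68 to 8.87. Without that array FLNC and NEXN passed as lower in the sham atrium. ABLIM1 read 12.53 in array 3 of the uninephrectomized ventricle, below the others at 12.61 to 12.64.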

How the results depend on the processing

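The 0 members called in each uninephrectomy comparison stayed 0 under each alternative run. With 1 array left out the sham comparison held 17 to 21 members lower in the atrium, and the comparison in uninephrectomized dogs 22 to 23 lower and 1 to 2 higher, the second being TMOD1 without array 4 of the uninephrectomized atrium. Members called higher in the atrium numbered 3 in sham and 2 in uninephrectomized dogs with quantile normalization, 4 and 3 with the mean of a gene's probe sets, and 2 in uninephrectomized dogs without the arrays of a 3' gap over 1.4. Over all probe sets, 3171 instead of 6257 were called in sham dogs without those arrays, with fewer samples fitted. Leaving out 1 array ended the sham call of MYBPC3 (sham atrium 2, 3 or 5 and sham ventricle 1, 2 or 5), LMOD2 (atrium 2 or 4, ventricle 1, 4 or 5), ANKRD2 (atrium 1 or 2, ventricle 1, 2 or 5) and MYOM1 (ventricle 5). In uninephrectomized dogs it added TPM1 (-0.22, atrium 2), TMOD1 (0.25, atrium 4) and XIRP1 (-1.23, ventricle 5), with adjusted p of 0.0417 to 0.0490. In uninephrectomy comparisons 1 probe set was called in the atrium without sham array 5, and up to 4 in the ventricle without sham array 1, none a member's brightest.

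The replicate block changed the sham calls of MYBPC3, LMOD2, ANKRD2 and NEXN, left 19 of 35 sham members called (18 shared), and changed no other call in sham dogs. For uninephrectomized dogs, atrial and ventricular arrays of equal number gave correlations of -0.24 to 0.12, with 0 of 5 matching their own number best. Which of these arrays come from the same dog is not known from the labels. The block gave 24 calls there, NEBL added at -0.37 ± 0.09 (adjusted p = 0.0104).

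Uncalled differences between uninephrectomized and sham dogs changed sign as follows, with adjusted p of 0.911 or more, and the cause was not tested. In the ventricle ACTA1 gave 0.020 with quantile normalization. With the gap as a covariate MYH7 gave -0.019 and ANKRD1 0.10 there, and the difference of the responses of ANKRD1 was -0.019. With the mean of probe sets NEBL gave 0.024, MYH7 0.024 and CSRP3 0.026 in the atrium, and PDLIM5 0.0057, ANKRD1 0.056 and FHL1 0.039 in the ventricle. Without the arrays of high 3' gap MYH7 gave 0.038, ANKRD1 -0.081 and FHL1 -0.034 in the atrium, and ACTC1 0.0090, ACTA1 0.11, ANKRD1 0.10 and FHL1 0.061 in the ventricle. The difference of the responses was then -0.18 for ANKRD1 and -0.095 for FHL1, and CSRP3 gave -0.014 between chambers of uninephrectomized dogs.

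With 1 array left out the atrial difference ranged from -0.037 to 0.12 for FHL1, -0.055 to 0.014 for CSRP3, -0.076 to 0.15 for ANKRD1, -0.27 to 0.036 for FLNC, -0.11 to 0.015 for XIRP2 and -0.12 to 0.020 for MYH7. The ventricular one ranged from -0.14 to 0.045 for FHL1, -0.012 to 0.091 for CSRP3, -0.098 to 0.012 for ACTA1 and -0.070 to 0.030 for ANKRD1. The difference of the responses ranged from -0.011 to 0.18 for FHL1 and -0.058 to 0.17 for ANKRD1, and CSRP3 between chambers of uninephrectomized dogs from -0.014 to 0.054. The chamber difference of the 3' gap changed sign with GAPDH alone in sham dogs (0.014) and with ACTB (0.16) or GAPDH (0.15) alone in uninephrectomized dogs.

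Signals near log2 2 are at the array median and those over 14 near its maximum, which bounds the differences that can be seen at either end. With 5 arrays per group, intervals reached 1 log2 unit for some members, their width set by a spread pooled over all groups.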

Other observations

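Of the further probe sets of the members in the uninephrectomy comparisons, 0 passed, with differences from -0.62 to 0.93 in the atrium and from -0.52 to 1.06 in the ventricle. The NEXN probe set with a mean signal of 7.79, picked after its values were seen, stood at 0.88 ± 0.32 in the atrium (adjusted p = 0.679) and 0.94 ± 0.32 in the ventricle (adjusted p = 0.635), while the brightest NEXN probe set stood at -0.22 ± 0.13 and -0.07 ± 0.13.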
